A study of Mus musculus with 8 samples.

Results

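The genes examined encode transcription factors and partners of the erythroid and megakaryocyte lineages, namely Gata1, Gata2, Zfpm1, Tal1, Klf1, Gfi1b, Nfe2, Lyl1, Lmo2 and Ldb1. They were chosen by name and not by a cutoff on measured values, though with earlier results of these data known. They make up 10 of the 24411 genes in the deposited tables. All 10 were among the 13177 genes that passed the filter on low counts. RNA had been measured by bulk sequencing in 8 libraries from the bone marrow of wild-type C57BL/6 mice, with 2 libraries for every one of 4 sorted progenitor populations. These common myeloid progenitors are cells that can form granulocytes, monocytes, red cells and platelets. Per the labels every population was KIT+ and CD16/32-. The CD41/CD9-negative population was CD34dim CD41- CD9-. The CD34bright population was CD41+ CD9+. The CD48bright and CD48dim populations shared the phenotype CD34dim CD41+ CD9+ and differed in their CD48 level. The age of the mice is not in the labels. Whether both libraries of a population stem from different mice or sorts is not in the labels either, so p-values here cover the spread between the deposited libraries only, and that spread may be technical.

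GATA1 and GATA2 are zinc finger proteins that bind the DNA motif for which they are named. GATA2 acts in stem and early progenitor cells and in mast cells, and GATA1 takes its place at many sites as red cells and megakaryocytes form. Both act with FOG1, the cofactor encoded by Zfpm1. At many erythroid enhancers a GATA factor stands beside a basic helix-loop-helix protein, TAL1 or its relative LYL1, which is bridged to it by the LIM domain protein LMO2 and by LDB1, the adaptor that also joins distant sites into loops. KLF1, GFI1B and NFE2 act beside and downstream of this complex in the red cell and platelet lineages.

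The total of expected counts per library lay between 7237587 and 20632005, and was lowest in CD48dim replicate 2. The 2 libraries of a population had a Spearman correlation across genes of 0.962 in CD41/CD9-negative, 0.976 in CD34bright, 0.954 in CD48bright and 0.836 in CD48dim, so the CD48dim pair stood apart. Summed levels of 9 mature neutrophil markers were 686.4 and 49.8 CPM (counts scaled to the library's TMM-corrected total) in CD41/CD9-negative. They were between 114.9 and 164.7 CPM in the CD34bright and CD48bright libraries, and 4140 and 615.7 CPM in CD48dim. Cxcr2, 1 of the 9, was instead highest in CD34bright, at 55.8 and 86.9 CPM. It was at 26.8 and 43.9 CPM in CD48bright, 11.1 and 11.3 CPM in CD48dim, and 8.34 and 4.76 CPM in CD41/CD9-negative. The 7 red cell markers summed to 11.6 and 23.7 CPM in CD41/CD9-negative, between 6.60 and 34.5 CPM in CD34bright and CD48bright, and 261.0 and 40.3 CPM in CD48dim. Malat1, a nuclear RNA, was at 38947 CPM in CD48dim replicate 2 and at 5004 to 14867 CPM in the other 7 libraries. In each of the 4 populations Malat1 was higher, and the total of counts lower, in replicate 2 than in replicate 1. The part of these markers and of Malat1 in the results was not tested. The gene for CD41, Itga2b, followed the sort, with 2.83 and 2.18 CPM in CD41/CD9-negative against a range of 64.3 to 155 CPM over the other 6. Kit, the marker shared by all 4 gates, was at 240.0 and 358 CPM in CD41/CD9-negative, against a range of 607 to 1226 CPM elsewhere.

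Promoter windows of the 10 genes were read from RefSeq (build GRCm38.p6, from 250 bases before to 50 after each listed start) because the GATA motif is the site that 2 of the proteins bind. For 8 of the 10 genes there were 12 windows, and Nfe2 and Lmo2 had none. The motif was searched in 4 spellings. AGATAA was the first of them, AGATAG was the second one, TGATAA was the third of them and TGATAG was the fourth one, each on both strands. A match was found in 4 of the 12 windows, against 29.8% of 32851 promoters of the same length. Of the windows with a match 3 are printed, 5′ to 3′ on the strand of the gene, with the match in capitals. They are Gfi1b at chr2:28621933-28622232 on the minus strand, with the match 120 bases before the start, Tal1 at chr4:115056176-115056475 on the plus strand, with the match 205 bases before the start, and Klf1 at chr8:84901732-84902031 on the plus strand, with the match 80 bases before the start.
Gfi1b: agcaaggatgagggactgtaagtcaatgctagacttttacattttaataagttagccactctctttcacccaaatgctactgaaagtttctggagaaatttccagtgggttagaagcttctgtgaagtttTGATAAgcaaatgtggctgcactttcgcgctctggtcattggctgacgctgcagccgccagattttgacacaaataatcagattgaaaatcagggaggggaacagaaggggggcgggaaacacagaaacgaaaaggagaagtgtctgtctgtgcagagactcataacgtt
Tal1: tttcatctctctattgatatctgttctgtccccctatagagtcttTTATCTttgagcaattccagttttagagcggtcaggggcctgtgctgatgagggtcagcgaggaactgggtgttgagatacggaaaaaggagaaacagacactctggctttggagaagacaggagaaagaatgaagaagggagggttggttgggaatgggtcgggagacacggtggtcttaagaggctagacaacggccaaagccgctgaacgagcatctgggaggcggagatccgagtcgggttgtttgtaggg
Klf1: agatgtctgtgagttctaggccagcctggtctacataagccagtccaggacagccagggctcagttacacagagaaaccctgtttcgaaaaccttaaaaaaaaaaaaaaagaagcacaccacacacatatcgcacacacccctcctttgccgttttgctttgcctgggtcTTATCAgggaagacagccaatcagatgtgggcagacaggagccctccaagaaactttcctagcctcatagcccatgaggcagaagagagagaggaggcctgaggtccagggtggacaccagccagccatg
The fourth was a window of Ldb1, with matches 240 and 200 bases before its start. The first bases from this start were in no annotated transcript of Ldb1. The same held for 1 other Ldb1 window, without a match, and for no window of another gene. No match lay in the windows of Gata1, Gata2, Zfpm1 and Lyl1 or in a second Tal1 window. The sequence CACCC, the core of sites that KLF proteins bind, was in 10 of the 12 windows against 57.5% of all promoters. The E-box CANNTG, which TAL1 and LYL1 bind with a partner, was in 7 of 12 against 72.3%, and the NFE2-type site TGANTCA was in 0 of 12 against 7.81%, both also searched on both strands. These are letters in short windows and no measure of binding.

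**Figure D1:**
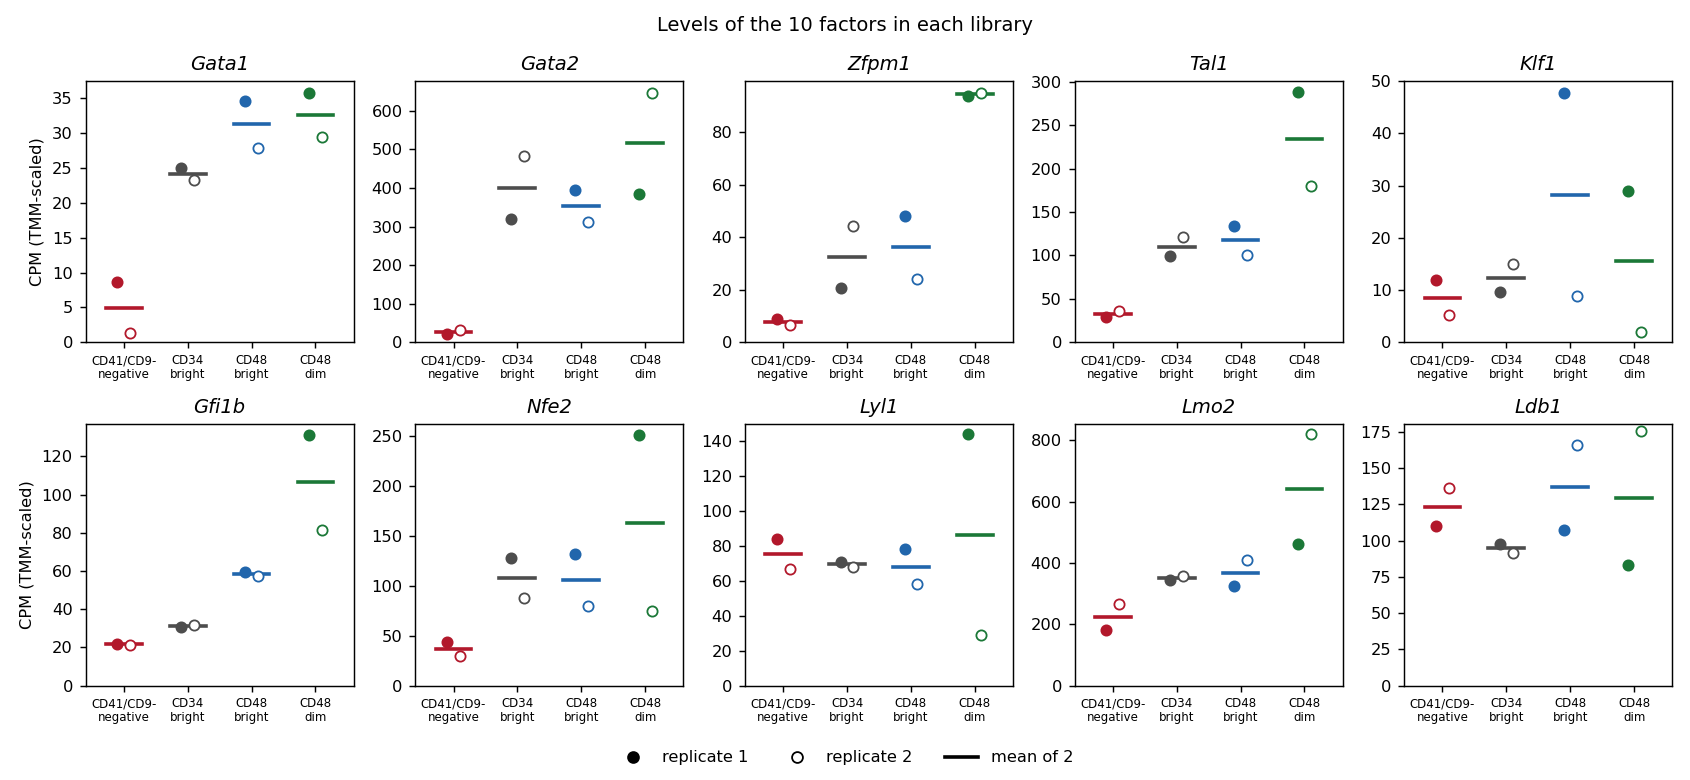
Level of each of the 10 factors in CPM (linear axis from 0) in the 8 libraries; the filled and open points are replicates 1 and 2 and the bar is their mean. Gata2 sits at 21.9 and 33.3 CPM in the CD41/CD9-negative libraries and between 312 and 646 CPM in the other 6, while the points of Lyl1 and Ldb1 lie farthest apart within CD48dim.

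Among the GATA factors and their cofactor, Gata2 and Zfpm1 were lower in CD41/CD9-negative than in the rest, and Gata1 was not called. Gata2 (chromosome 6, 88193891 to 88207032, protein-coding, mm10) stood at 21.9 and 33.3 CPM in CD41/CD9-negative, 319.9 and 482 CPM in CD34bright, 396 and 312 CPM in CD48bright, and 385 and 646 CPM in CD48dim. The CD41/CD9-negative libraries were far below all 6 others, and the 3 CD41+ populations overlapped one another. Means were 27.6 ± 8.11 CPM in CD41/CD9-negative, 401 ± 115 CPM in CD34bright, 354 ± 59.4 CPM in CD48bright and 515 ± 185 CPM in CD48dim (SD, n = 2 each). In CD41/CD9-negative cells Gata2 was lower than the log2 mean of the 3 other populations by a log2 difference of -3.92 ± 0.41 (SE), a level 15.1-fold lower (edgeR quasi-likelihood test with Benjamini-Hochberg adjustment, adjusted p = 0.00165). Gata2 was also the one factor called in each single comparison of CD41/CD9-negative, with log2 differences of -3.86 ± 0.44 against CD34bright (edgeR adjusted p = 0.00888), -3.68 ± 0.43 against CD48bright (adjusted p = 0.0273) and -4.22 ± 0.45 against CD48dim (adjusted p = 0.00213). Since these are bulk samples, fewer cells with Gata2 RNA and less of it per cell cannot be told apart.

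Gata1 (chromosome X, 7959260 to 7976663) was at 8.66 and 1.29 CPM in CD41/CD9-negative, 24.9 and 23.2 CPM in CD34bright, 34.5 and 27.9 CPM in CD48bright, and 35.7 and 29.4 CPM in CD48dim. Both CD41/CD9-negative libraries were below the 6 others, but they differed widely between themselves, with 110 and 16 counts. The log2 difference of -2.54 ± 0.68 from the mean of the 3 other populations missed the threshold (edgeR adjusted p = 0.0925). It passed in 3 of the 8 fits that left out 1 library: without CD41/CD9-negative replicate 1 (-4.48, adjusted p = 0.0475), without CD48dim replicate 1 (-2.49, adjusted p = 0.0123) and without CD48dim replicate 2 (-2.59, adjusted p = 0.00828). It was also called in 5 of the 7 other alternatives, with adjusted p from 0.000338 to 0.0947 over the 7, among them DESeq2 (0.000684) and limma-voom (0.0413).

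Zfpm1 (chromosome 8, 122281856 to 122337862) was at 8.74 and 6.46 CPM in CD41/CD9-negative, 20.5 and 44.2 CPM in CD34bright, 48.1 and 24.1 CPM in CD48bright, and 93.6 and 95.0 CPM in CD48dim. The CD41/CD9-negative libraries were the lowest and the CD48dim libraries the highest, with CD34bright and CD48bright overlapping in between. Zfpm1 was lower in CD41/CD9-negative than in the 3 other populations by a log2 difference of -2.66 ± 0.47 (edgeR adjusted p = 0.0183). Against CD48dim alone the difference was -3.63 ± 0.54 (edgeR adjusted p = 0.00838).

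Of the members of the complex that a GATA factor joins, Tal1 was lower in CD41/CD9-negative, while Lyl1, Lmo2 and Ldb1 were not called. Tal1 (chromosome 4, 115056426 to 115071755) was at 29.4 and 35.7 CPM in CD41/CD9-negative, 98.9 and 121 CPM in CD34bright, 134 and 100.3 CPM in CD48bright, and 288 and 180.1 CPM in CD48dim. As for Zfpm1, CD41/CD9-negative was lowest, CD48dim highest and the other pair of populations overlapped. The log2 difference of CD41/CD9-negative from the 3 others was -2.15 ± 0.33 (edgeR adjusted p = 0.00909), and that from CD48dim was -2.85 ± 0.37 (edgeR adjusted p = 0.00503).

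Lyl1 (chromosome 8, 84701423 to 84704716), the relative of Tal1, was at 84.0 and 66.8 CPM in CD41/CD9-negative, 71.0 and 68.1 CPM in CD34bright, 78.2 and 58.1 CPM in CD48bright, and 144 and 29.0 CPM in CD48dim. The populations overlapped, and both the highest and the lowest library were CD48dim. Its log2 difference between CD41/CD9-negative and the 3 others was 0.02 ± 0.49 (edgeR adjusted p = 0.999). Levels per length (CPM per kilobase of effective length) allow the paralogs to be set beside each other. On that scale the ratio of Lyl1 to Tal1 was 7.32 and 4.76 in CD41/CD9-negative, 1.83 and 1.44 in CD34bright, 1.496 and 1.47 in CD48bright, and 1.27 and 0.409 in CD48dim. Lyl1 was thus above Tal1 in every library except CD48dim replicate 2, and by the widest margin in both CD41/CD9-negative libraries.

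Lmo2 (chromosome 2, 103957903 to 103981878) was at 181 and 267 CPM in CD41/CD9-negative, 345 and 358 CPM in CD34bright, 324 and 411 CPM in CD48bright, and 461 and 821 CPM in CD48dim. The CD41/CD9-negative libraries were below and the CD48dim libraries above all others. The log2 difference of -0.96 ± 0.33 between CD41/CD9-negative and the 3 others was not called (edgeR adjusted p = 0.206). Of the 8 fits without 1 library it passed in 1, that without CD48dim replicate 1 (-1.08, adjusted p = 0.0156).

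Ldb1 (chromosome 19, 46031525 to 46048145) was at 110.0 and 137 CPM in CD41/CD9-negative, 97.9 and 91.8 CPM in CD34bright, 107 and 166 CPM in CD48bright, and 83.0 and 176 CPM in CD48dim. CD41/CD9-negative lay within the range of the CD48bright and CD48dim libraries. Its log2 difference from the 3 others was 0.05 ± 0.33 (edgeR adjusted p = 0.984). The libraries carry no strand information and Ldb1 shares 177 exon bases with Pprc1 on the opposite strand, which had 13226 counts in all against 12567 for Ldb1, so the Ldb1 level is uncertain. Lyl1 shares 4 exon bases with Nfix.

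Per length, Lmo2 had the highest level of the 10 factors in all 4 populations, at 175 ± 46.2 in CD41/CD9-negative, 275 ± 5.75 in CD34bright, 288 ± 44.3 in CD48bright and 498 ± 200.3 CPM per kilobase in CD48dim (SD, n = 2 each). Gata2 ranked second of the 10 in CD34bright, CD48bright and CD48dim, with 134, 118 and 171 CPM per kilobase. In CD41/CD9-negative it ranked sixth, with 9.21 CPM per kilobase, behind Lmo2, Ldb1, Lyl1, Nfe2 and Gfi1b. The ratio of Gata1 to Gata2 per length was below 1 in all 8 libraries. It was 0.718 and 0.0700 in CD41/CD9-negative, 0.141 and 0.0871 in CD34bright, 0.159 and 0.161 in CD48bright, and 0.168 and 0.0823 in CD48dim. The first CD41/CD9-negative value was the highest and the second the lowest of the 8.

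The factors that act beside and after the complex behaved differently from one another. Gfi1b (chromosome 2, 28609450 to 28621982), a zinc finger repressor needed for red cells and megakaryocytes, was at 21.9 and 21.3 CPM in CD41/CD9-negative, 30.5 and 31.8 CPM in CD34bright, 59.2 and 57.2 CPM in CD48bright, and 131 and 81.5 CPM in CD48dim. It was the only member whose 4 populations did not overlap at all, stepping up in that order. How many of all genes did so was not counted. No step of Gfi1b between neighbours in that order passed the test (edgeR adjusted p of 0.305 or more). Its log2 difference between CD41/CD9-negative and the 3 others was -1.42 ± 0.31 (edgeR adjusted p = 0.0443), and against CD48dim it was -2.30 ± 0.37 (edgeR adjusted p = 0.0109). The first call held in 2 of the 8 fits without 1 library, those without CD48dim replicate 1 or replicate 2 (adjusted p = 0.00622 and 0.00195), and was lost without any one of the 6 other libraries (adjusted p from 0.110 to 0.419).

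Nfe2 (chromosome 15, 103248212 to 103258403), whose protein drives the last steps of platelet formation, was at 43.8 and 29.9 CPM in CD41/CD9-negative, 128 and 87.8 CPM in CD34bright, 132 and 79.4 CPM in CD48bright, and 251 and 74.5 CPM in CD48dim. CD41/CD9-negative was below all 6 others, and the 3 CD41+ populations overlapped. The log2 difference was -1.74 ± 0.49 (edgeR adjusted p = 0.118). It passed without CD48dim replicate 1 (-1.36, adjusted p = 0.0116) or replicate 2 (-1.95, adjusted p = 0.000872), and in 4 of the 7 other alternatives, DESeq2 (adjusted p = 0.00502) among them but not limma-voom (0.120).

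Klf1 (chromosome 8, 84901982 to 84905291), which switches on globin and other red cell genes, was at 11.9 and 5.17 CPM in CD41/CD9-negative, 9.59 and 15.0 CPM in CD34bright, 47.7 and 8.87 CPM in CD48bright, and 28.9 and 2.06 CPM in CD48dim. Within CD48bright and within CD48dim the libraries lay far apart and overlapped the other populations, and CD48dim replicate 2 rested on 15 counts. The log2 difference of -1.04 ± 0.94 was not called (edgeR adjusted p = 0.794).

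Set side by side, 4 of the 10 factors (Gata2, Zfpm1, Tal1 and Gfi1b) were called lower in CD41/CD9-negative than in the 3 other populations and none higher. Of all 13177 genes tested, 3.04% were called in that comparison, 0.895% in the lower and 2.14% in the higher direction. The median log2 difference of the 10 was -1.58, against -0.01 over all genes. Of the 10 factors 7, these 4 with Gata1, Nfe2 and Lmo2, had both CD41/CD9-negative libraries below the 6 others, as did 6.29% of all genes tested. In the test of any difference among the 4 populations the same 4 factors were called (edgeR adjusted p = 0.00966 for Gata2, 0.0213 for Tal1, 0.0287 for Gfi1b and 0.0307 for Zfpm1), against 2.44% of all genes.

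The calls rest on few libraries. Without CD41/CD9-negative replicate 1 the call count was 1 (Gata1), with Gata2 at an adjusted p of 0.0521, and without CD41/CD9-negative replicate 2 it was 1 (Gata2). With 1 library left in that population, its spread is assumed to be like that of the other groups. Both fits also called a far smaller share of all genes than the fit of all libraries, here and in the test of any difference. Without CD48dim replicate 1 the count was 7 (9.92% of all genes called), without CD48dim replicate 2 it was 6 (8.27%), and with neither CD48dim library in the fit, an alternative chosen after seeing the data, it was 6 (6.66%). In the test of any difference the count was 0 without either one of the CD41/CD9-negative libraries, 8 without CD48dim replicate 1 (24.7% of all genes) and 6 without CD48dim replicate 2 (9.11%). Summed platelet markers were also lower in CD41/CD9-negative, at 3.62 and 9.04 CPM against 30.1 to 157.5 CPM in the other libraries, with 3 of the 6 tested markers at 0 counts in both CD41/CD9-negative libraries. Stem cell markers summed to 184.2 and 359.2 CPM in CD41/CD9-negative, against a range of 314.9 to 1908 CPM elsewhere. Their part in the factors' differences was not tested.

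**Figure D2:**
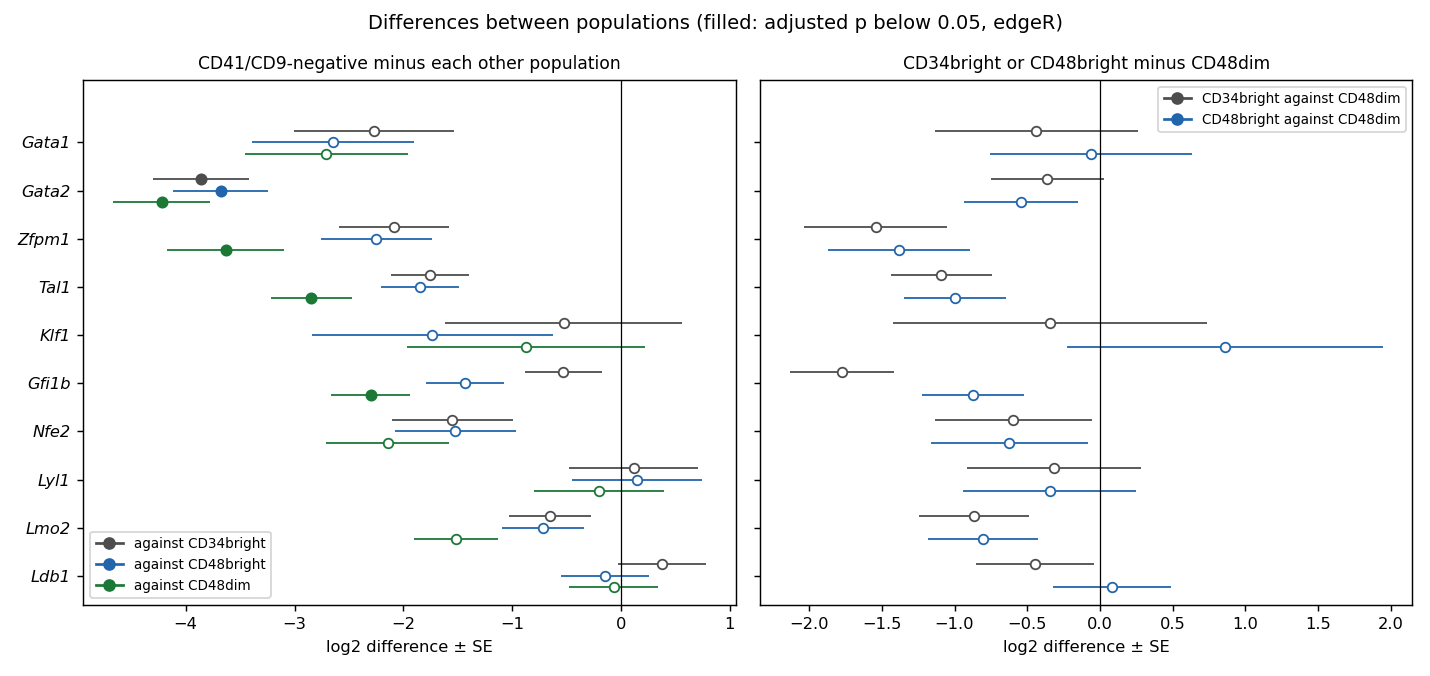
Log2 differences ± SE (edgeR) of the 10 factors, for CD41/CD9-negative minus each other population (left) and for CD34bright or CD48bright minus CD48dim (right); filled points have an adjusted p below 0.05. Gata2 is filled in all 3 comparisons on the left, Zfpm1, Tal1 and Gfi1b only against CD48dim, and no point on the right is filled.

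Against single populations the count of factors called was 1 of 10 for CD34bright, where 0.842% of all genes were called, 1 for CD48bright (0.212% of all genes) and 4 for CD48dim (4.02% of all genes). These comparisons share the CD41/CD9-negative libraries. Against CD34bright, Tal1 and Zfpm1 had log2 differences of -1.76 ± 0.36 and -2.09 ± 0.51 without a call (edgeR adjusted p = 0.0653 and 0.119). Against CD48bright they had -1.85 ± 0.36 and -2.25 ± 0.51 (edgeR adjusted p = 0.102 and 0.1497). A call against CD48dim and none against the other populations does not show that these differences differ from one another, which was not tested. Fits without 1 CD41/CD9-negative, CD34bright or CD48bright library called a smaller share of all genes in each of these comparisons than the fit of all libraries. The Gata2 call against CD34bright was lost without CD41/CD9-negative replicate 1 or 2 and without CD34bright replicate 2. That against CD48bright was lost without any one CD41/CD9-negative or CD48bright library. Without CD48dim replicate 1 the count was 5 against CD34bright and 6 against CD48bright, in fits that called 5.44% and 3.09% of all genes. Without CD48dim replicate 2 the counts were again 5 and 6, with 5.46% and 3.08% of all genes called. In the comparison with CD48dim the count was 2 without CD41/CD9-negative replicate 1, 1 without CD41/CD9-negative replicate 2, and 7 without CD48dim replicate 1. In that last fit, which called 23.9% of all genes, Lyl1 was called with the opposite sign, 1.39 (edgeR adjusted p = 0.0202), and Klf1, not called, stood at 2.05.

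Within the 3 CD41+ CD9+ populations no factor was called. Between CD34bright and CD48bright the 10 log2 differences ran from -1.21 to 0.18 (edgeR, smallest adjusted p = 1). There 0 of all genes were called, 262 genes and 1 factor, Gfi1b, had an unadjusted p below 0.05, and neither DESeq2 nor limma-voom called any of the 10 factors. The libraries of 3 factors (Gata1, Gfi1b and Ldb1) did not overlap, all lower in CD34bright, as for 16.7% of all genes. Gfi1b, at 31.1 ± 0.91 CPM in CD34bright and 58.2 ± 1.43 CPM in CD48bright, differed by -0.90 ± 0.35.

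CD34bright and CD48bright were then each compared with CD48dim, again with shared libraries. All 10 factors had a negative log2 difference of CD34bright from CD48dim, and 5 had libraries that did not overlap (Gata1, Zfpm1, Tal1, Gfi1b and Lmo2), as did 23.2% of all genes in that direction. Gfi1b came nearest to a call, at -1.77 ± 0.36 (edgeR adjusted p = 0.0643). Zfpm1 followed at -1.54 ± 0.49, Tal1 at -1.09 ± 0.35 and Lmo2 at -0.87 ± 0.38 (edgeR adjusted p = 0.152, 0.154 and 0.255). The edgeR count was 0 of 10 factors against 0.577% of all genes, with 4 factors at an unadjusted p below 0.05. DESeq2 called 3 (Gfi1b, Zfpm1 and Tal1) and limma-voom 0, in fits that called 9.77% and 0.342% of all genes. The edgeR count was 4 without CD48dim replicate 1, a fit that called 28.4% of all genes, and 2 without CD48dim replicate 2, where 4.84% were called. Gfi1b passed without CD48dim replicate 1 (-1.38, adjusted p = 0.0105) and without CD48dim replicate 2 (-2.07, adjusted p = 0.00425).

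Between CD48bright and CD48dim 0 of 10 factors were called, against 0.387% of all genes, and 3 had an unadjusted p below 0.05. DESeq2 and limma-voom also called 0, and edgeR called 3 without CD48dim replicate 1, a fit that called 23.3% of all genes. Tal1 differed by -0.997 ± 0.35, Zfpm1 by -1.38 ± 0.49, Gfi1b by -0.87 ± 0.35 and Lmo2 by -0.80 ± 0.38 (edgeR adjusted p = 0.254, 0.258, 0.305 and 0.361). These same 4 were the factors whose 2 CD48dim libraries both lay above the 6 others, which held for 11.6% of all genes. Ordered by mean CPM, CD48dim was first for 8 factors and CD48bright for Klf1 and Ldb1. Of the 30 pairs of neighbours in these orders the test was passed by 1, Gata2 in CD41/CD9-negative against CD48bright.

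**Figure D3:**
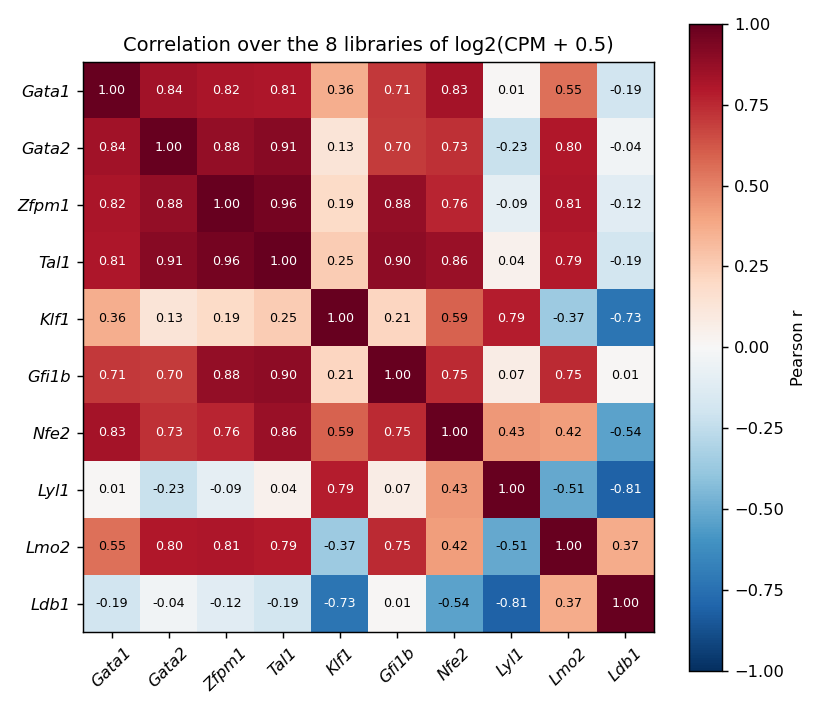
Pearson correlation of log2(CPM + 0.5) over the 8 libraries for each pair of the 10 factors (color scale from -1 to 1). Gata1, Gata2, Zfpm1, Tal1, Gfi1b, Nfe2 and Lmo2 correlate with one another at 0.42 to 0.96, highest for Zfpm1 with Tal1, while Ldb1 and Lyl1 reach -0.81.

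Over the 8 libraries the 45 pairs of factors had Pearson correlations from -0.81 to 0.96 on the log2(CPM + 0.5) scale, with a median of 0.43. The points share the 4 populations, 2 libraries each, and the contrast of CD41/CD9-negative with the rest. Zfpm1 and Tal1 were most alike (0.96), followed by Gata2 with Tal1 (0.91) and Tal1 with Gfi1b (0.90). Lyl1 and Klf1 went together (0.79) and both ran against Ldb1 (-0.81 and -0.73). Lyl1 and Klf1 were far lower, and Ldb1 higher, in CD48dim replicate 2 than in CD48dim replicate 1.

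Among 9737 genes with a mean of at least 8 CPM, those whose levels followed Gata2 most closely were Spns2 (0.991), a lipid transporter, Dapp1 (0.985), a signalling adaptor, and Muc13 (0.981), a membrane mucin. Muc13 was at 54.8 and 67.7 CPM in CD41/CD9-negative, against a range of 288 to 469 CPM elsewhere. Those most like Gata1 were Prodh (0.975), Arap3 (0.972) and Epb4.1 (0.971), the last a protein of the red cell membrane skeleton. Nefh (0.976), Slc37a1 (0.969) and Ftsj3 (0.961) followed Gfi1b. Ccdc57 (0.951), Stom (0.946) and Wdr89 (0.939) followed Klf1, and Prpsap2 (0.990), Nxt2 (0.982) and Zc3h7a (0.974) followed Ldb1. Each value is a correlation over the same 8 libraries, a description without a test.

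**Figure D4:**
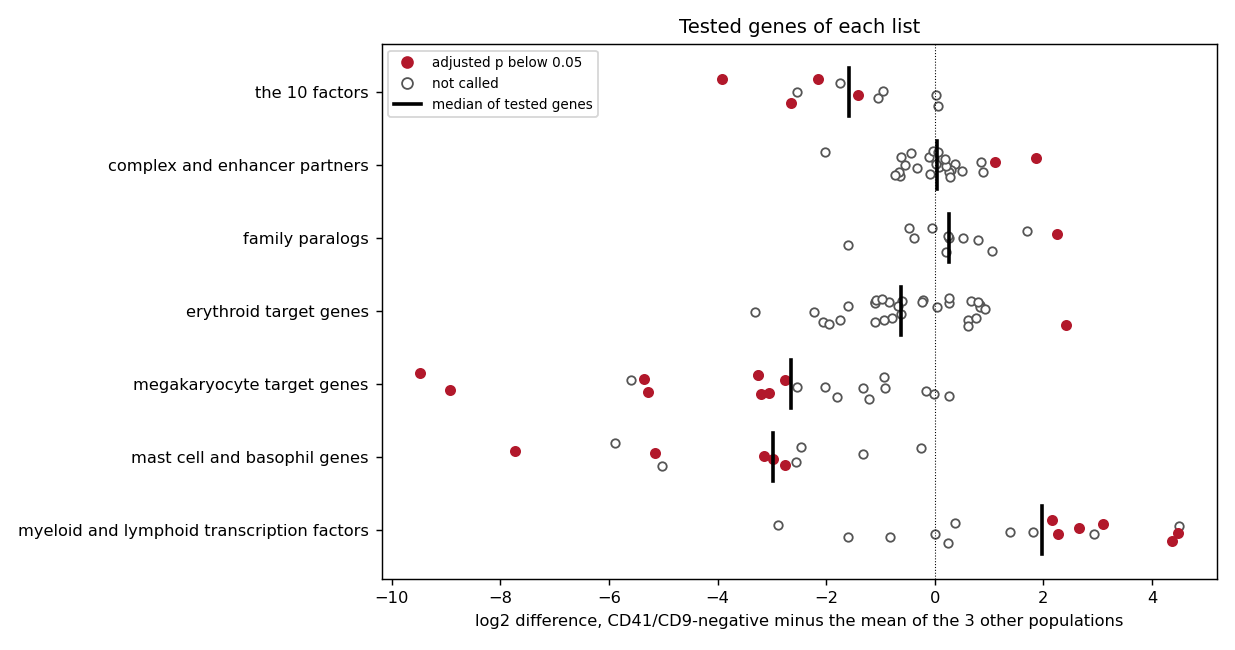
Log2 difference (edgeR) between CD41/CD9-negative and the mean of the 3 other populations for every tested gene of 7 lists; red points have an adjusted p below 0.05 and black bars are medians. The medians run from -2.98 (mast cell and basophil genes) to 1.98 (myeloid and lymphoid transcription factors); the points near -9 are Pf4 and Treml1, which had 0 counts in CD41/CD9-negative, so their fitted values are no bound.

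The 6 lists place the factors among the genes they work with. In the comparison of CD41/CD9-negative with the 3 others, 3.04% of all genes were called. That share was higher in fits without 1 CD48dim library and lower without 1 library of any other population. Of 26 tested partners of the complex and its enhancers, 2 (7.69%) were called in the comparison of CD41/CD9-negative with the 3 others, both higher. The median log2 difference of the 26 was 0.05, with members on both sides. These were Tcf4, a helix-loop-helix partner, at 1.86 ± 0.36 (edgeR adjusted p = 0.0264) and Ikzf1, the lymphoid factor Ikaros, at 1.11 ± 0.24 (edgeR adjusted p = 0.0403). Neither call held without CD41/CD9-negative replicate 1 or replicate 2, nor without CD34bright replicate 1, CD34bright replicate 2 or CD48bright replicate 1, and 1 call was made without CD48bright replicate 2. Without either one of the CD48dim libraries 3 were called. Runx1, a partner of early blood factors, was at 440.0 and 512 CPM in CD41/CD9-negative against 243 to 668 CPM elsewhere, overlapping throughout.

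Of 12 tested paralogs of the 10 factors, Klf4 was called higher in CD41/CD9-negative, with 139 and 88.6 CPM there, 15.0 and 26.4 CPM in CD34bright, 40.4 and 60.1 CPM in CD48bright, and 10.4 and 16.5 CPM in CD48dim. Its log2 difference was 2.24 ± 0.33 (edgeR adjusted p = 0.00836), and it was not called without CD41/CD9-negative replicate 1. Without either one of the CD48dim libraries 2 paralogs were called higher and 1 lower. Klf3, a repressor that Klf1 activates in red cells, was called in the test of any difference (edgeR adjusted p = 0.0298), with 134 and 116 CPM in CD41/CD9-negative, 25.1 and 40.1 CPM in CD34bright, 53.4 and 44.2 CPM in CD48bright, and 125 and 153 CPM in CD48dim. It was lowest in CD34bright and CD48bright. Gfi1, the myeloid paralog of Gfi1b, was at 17.1 and 24.4 CPM in CD41/CD9-negative, against a range of 37.5 to 108 CPM elsewhere. Its difference of -1.60 ± 0.46 was not called (edgeR adjusted p = 0.118). Tal2 and Lmo3 had 0 counts in all 8 libraries.

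Of 20 tested megakaryocyte targets, 8 were called lower in CD41/CD9-negative and none higher, a share of 40% against 3.04% of all genes. The median log2 difference was -2.65. With the 3 genes at 0 counts there set at a bound of 3 counts over the 2 libraries, it was -2.28. Itga2b is in the list, and its protein CD41 was used in the sort. So was CD9, whose gene Cd9 is also in the list. Cd9 was at 2.83 and 12.0 CPM in CD41/CD9-negative, against a range of 26.6 to 56.8 CPM elsewhere. Rab27b, a small GTPase of platelet granules, was at 0.157 and 0.484 CPM in CD41/CD9-negative, against a range of 6.19 to 27.5 CPM elsewhere. Both CD41/CD9-negative libraries were below all the others, with a log2 difference of -5.35 ± 0.74 (edgeR adjusted p = 0.00600). They held 2 and 6 counts of Rab27b, so the size of this difference is uncertain. The list's count was 1 without CD41/CD9-negative replicate 1, 3 without CD41/CD9-negative replicate 2 and 5 without any one CD34bright or CD48bright library.

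Mast cell and basophil genes, known targets of GATA2, had 5 of 11 tested called lower and none higher (45.5%, against 3.04% of all genes). Their median was -2.98, or -2.76 with the 1 gene at 0 counts set at its bound. Fcer1a, the alpha chain of the high-affinity IgE receptor, was at 0.157 and 0.0807 CPM in CD41/CD9-negative, 29.5 and 67.5 CPM in CD34bright, 55.3 and 32.9 CPM in CD48bright, and 2.79 and 16.1 CPM in CD48dim. Ms4a2, the beta chain, was at 1.42 and 0.969 CPM in CD41/CD9-negative, 69.7 and 85.1 CPM in CD34bright, 54.8 and 55.4 CPM in CD48bright, and 5.14 and 32.0 CPM in CD48dim. Both were thus high in CD34bright and CD48bright and intermediate in CD48dim, unlike Gata2, whose CD48dim mean was the highest. Their log2 differences between CD41/CD9-negative and the 3 others were -7.72 ± 1.08 and -5.15 ± 0.79 (edgeR adjusted p = 0.00630 and 0.00932). Fcer1a rested on 2 and 1 counts in CD41/CD9-negative, so the size of its difference is uncertain. Cpa3, the mast cell carboxypeptidase, was at 44.5 and 23.7 CPM in CD41/CD9-negative, 396 and 565 CPM in CD34bright, 365 and 406 CPM in CD48bright, and 12.9 and 58.3 CPM in CD48dim. The CD48dim and CD41/CD9-negative libraries overlapped for Cpa3, which was called higher in CD34bright than in CD48dim (log2 difference 3.76, edgeR adjusted p = 0.0481). None of the 5 list calls held without CD41/CD9-negative replicate 1 or without replicate 2, and 3 were made without CD34bright replicate 1, CD34bright replicate 2 or CD48bright replicate 1. With 1 CD48dim library left out, whichever it was, more of the list were called, as were more of all genes.

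Of 31 erythroid targets tested, 1 was called in the same comparison (3.23%, against 3.04% of all genes). It was the transferrin receptor gene Tfrc, and it was higher. Tfrc, which takes up iron, was at 609.8 and 797 CPM in CD41/CD9-negative, 112 and 109.8 CPM in CD34bright, 173 and 243 CPM in CD48bright, and 76.7 and 124 CPM in CD48dim, with a log2 difference of 2.41 ± 0.26 (edgeR adjusted p = 0.00204). The list had 2 higher and 4 lower calls without CD48dim replicate 1, and 1 higher and 2 lower without CD48dim replicate 2. In the test of any difference 7 erythroid targets were called (22.6%, against 2.44% of all genes). Against CD48dim alone 6 were called in CD41/CD9-negative (19.4%, against 4.02% of all genes), 1 higher and 5 lower. Car1, a carbonic anhydrase of red cells, was at 292 and 301 CPM in CD41/CD9-negative, 35.2 and 51.9 CPM in CD34bright, 446 and 176 CPM in CD48bright, and 337 and 357 CPM in CD48dim. CD34bright was thus the low population for Car1, with a log2 difference of -3.00 from CD48dim (edgeR adjusted p = 0.0374). Epor, the erythropoietin receptor gene and a GATA1 target, was at 4.33 and 3.55 CPM in CD41/CD9-negative, 4.07 and 9.31 CPM in CD34bright, 19.7 and 9.87 CPM in CD48bright, and 35.6 and 52.9 CPM in CD48dim. Its log2 difference of CD41/CD9-negative from CD48dim was -3.49 (edgeR adjusted p = 0.0211). Over the 31 genes the median log2 difference of CD34bright from CD48dim was -2.49, against -0.07 over all genes. The red cell marker sum given above was also highest in CD48dim replicate 1, and its part in these differences was not tested.

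Of 16 tested myeloid and lymphoid transcription factors, 6 were called higher in CD41/CD9-negative and none lower (37.5%, against 3.04% of all genes). The median of the list was 1.98. The list was mixed, and Gfi1, Cebpa and Cebpe had differences below 0 without a call. Irf8, a factor of monocytes and dendritic cells, was at 1104 and 820.4 CPM in CD41/CD9-negative, 143 and 141 CPM in CD34bright, 170 and 207 CPM in CD48bright, and 6.83 and 0.275 CPM in CD48dim. Ebf1, a B cell factor, was at 31.9 and 42.8 CPM in CD41/CD9-negative, 0.413 and 0.284 CPM in CD34bright, 0.884 and 1.92 CPM in CD48bright, and 6.53 and 12.1 CPM in CD48dim. Their log2 differences were 4.37 ± 0.56 and 4.48 ± 0.47 (edgeR adjusted p = 0.00434 and 0.00165). Satb1 and Runx2 were called as well, at 2.66 ± 0.25 and 2.27 ± 0.24 (edgeR adjusted p = 0.00102 and 0.00165). Spi1, the gene for PU.1, which opposes GATA1 in myeloid cells, was at 114.5 and 61.2 CPM in CD41/CD9-negative, against a range of 31.3 to 155 CPM elsewhere. It overlapped them throughout, with a log2 difference of 0.23 ± 0.38 (edgeR adjusted p = 0.910). Cebpa, a factor of granulocytes and monocytes, was at 16.3 and 8.48 CPM in CD41/CD9-negative, 70.9 and 49.7 CPM in CD34bright, 43.2 and 24.9 CPM in CD48bright, and 5.36 and 4.81 CPM in CD48dim. It was called in the test of any difference (edgeR adjusted p = 0.0241) and was higher in CD34bright than in CD48dim by 3.56 ± 0.54 (edgeR adjusted p = 0.0374). Cebpe, a later granulocyte factor, differed by -2.88 ± 1.67 between CD41/CD9-negative and the 3 others without a call (edgeR adjusted p = 0.564). The list's count was 3 without CD41/CD9-negative replicate 1, and 10 higher with 1 or 2 lower without either one of the CD48dim libraries. The 11 T, NK and B cell markers summed to 208.5 and 155.3 CPM in CD41/CD9-negative, against a range of 78.2 to 440.6 CPM elsewhere. Most of the sum elsewhere was Nkg7, a cytotoxic granule gene, at 62.2 and 42.7 CPM in CD41/CD9-negative against a range of 65.0 to 400.1 CPM. The other 10 markers summed to 146 and 113 CPM in CD41/CD9-negative, against a range of 13.2 to 53.7 CPM elsewhere. Of 10 tested markers of the list, 2 were called higher in CD41/CD9-negative, among them Lck (3.48 ± 0.47, edgeR adjusted p = 0.00531), with a list median of 2.95. The 10 markers besides Nkg7 were thus higher in sum in CD41/CD9-negative, while Nkg7 was lower and most tested markers were not called. Pax5 is in both the marker list and the list of factors. The part of the lymphoid markers in the factors' differences was not tested.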

How the data were processed

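Per the labels' protocols, 5 ng of total RNA was amplified with the Ovation RNA-Seq System V2, which leaves no strand information, and sequenced on a NovaSeq. The deposited values are expected counts per gene in the layout of RSEM, per the file headers. The submitters' processing notes name STAR 2.7.2a, RSEM 1.3.2, edgeR 3.30.3 and mm10. Other settings were not given in the sources used here. Samples were grouped by the sort gates in the labels. The cluster numbers in the titles differ from those in the design text and were not used.

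Expected counts were rounded (at most 2.2% of the values in a library had a fraction). Of 24411 genes, 13177 passed filterByExpr. TMM scaling and edgeR 4.0.16's quasi-likelihood F-test were used in R 4.3.3, in 1 model of 8 libraries with 4 population means (4 residual degrees of freedom, 5.46 prior, biological coefficient of variation 49.8%), 2-sided, with Benjamini-Hochberg adjustment over all genes tested and a threshold of 0.05. The SE was approximated as the log2 difference over the root of its F value. Errors of CPM are SDs over 2 libraries. At these depths 3 counts equal 0.155 to 0.412 CPM, which covers counting error only. Alternatives used DESeq2 1.42.0 and limma 3.58.1. The steps were tested on simulated counts with less spread between libraries than in these data, so that test does not give their error rate here. Genes named were the 10 factors and up to 4 called genes of each list with the smallest p for any difference. The 3 genes most correlated with 5 of the factors were named too. Tcf4, Ikzf1, Gfi1, Spi1, Cebpa, Cebpe, Runx1, Tal2, Lmo3, Lck, Nkg7, Cxcr2, Cd9 and Pax5 were named after their values were seen. A gene that this rule also names is not reported here. The 10 factors, the lists and the tests were chosen with earlier results of these data known. The older symbols Epb4.1 and Epb4.2 were matched through RefSeq synonyms. Smaller deposited tables of 9918 genes held the same values and were not used.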

Additional observations from a re-analysis of the deposited data

How the results depend on the processing

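The threshold calls among the 10 factors depended on the fit more than the directions did. In the test of any difference the 4 factors called became 7 with DESeq2, 7 with no filter on low counts and 2 with limma-voom. Those fits called 13%, 8.69% and 1.26% of all genes, against 2.44% in the fit given above. For CD41/CD9-negative against CD34bright the 1 factor called became 4 with DESeq2 (4.74% of all genes called) and 5 with no filter (2.88%). It became 5 with only the compared populations in the fit (8.7%) and 4 with neither CD48dim library (5.66%), against 0.842% above. Against CD48bright the 1 became 5 with DESeq2, 5 with no filter, 4 with only the compared populations and 6 with neither CD48dim library. The shares of all genes were 2.78%, 1.63%, 2.47% and 2.97%, against 0.212% above. Against CD48dim the 4 became 7 with DESeq2 (11.7% of all genes) and 7 with no filter (6.44%), against 4.02% above. For CD34bright against CD48dim the 0 became 3 with DESeq2 (9.77% of all genes) and 2 with no filter (5.51%), against 0.577% above. DESeq2 size factors in edgeR changed none of these 8 counts. With 1 library left out the count ran from 0 to 8 for any difference, 1 to 7 for CD41/CD9-negative against the 3 others, 0 to 5 against CD34bright, 0 to 6 against CD48bright, 1 to 7 against CD48dim, 0 to 4 for CD34bright against CD48dim and 0 to 3 for CD48bright against CD48dim. Without 1 CD41/CD9-negative, CD34bright or CD48bright library the share of all genes called was lower in each of these tests. Without 1 CD48dim library it was higher. The cause was not tested.

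The labels do not say that same-numbered libraries share a mouse, sort or day. Their deviations correlated at 0.142 to 0.274 between populations, with only 2 numbers. With the number as a replicate block, 6 factors were called for any difference (5.8% of all genes). The count was 7 for CD41/CD9-negative against the 3 others (4.63%), 2 against CD34bright (2.02%), 2 against CD48bright (0.751%) and 7 against CD48dim (7.32%). For CD34bright against CD48dim it was 1 (5.18%). For CD41/CD9-negative against the 3 others that fit added Gata1 (adjusted p = 0.0332, 0.000338 to 0.358 over all its alternatives), Nfe2 (0.0163, over a range of 0.000230 to 0.759) and Lmo2 (0.0480, over a range of 0.0156 to 0.830).

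Signs turned for differences near 0 or of wide error. Lyl1 between CD41/CD9-negative and CD48dim was 0.0464 with limma-voom and 0.0187 with the replicate block, and ran from -0.93 to 1.39 with 1 library left out. Klf1 ran from -1.76 to 2.05 there. Against the 2 CD34dim CD41+ CD9+ populations Lyl1 was -0.0269 and Ldb1 -0.11. With 1 library left out, their differences from the 3 others ran from -0.22 to 0.55 and from -0.11 to 0.27. Of 648 values of single factors under the alternatives, 502 kept sign and side of the threshold, 40 lost the call, 94 gained one and 12 changed sign. Over all genes, the 400 called between CD41/CD9-negative and the 3 others became 908 with DESeq2, 849 with no filter, 610 with the replicate block and 45 to 1365 with 1 library left out. The 322 called for any difference became 1718, 1607, 764 and 32 to 3399, and 166 with limma-voom. The lowest counts of any factor were 16 for Gata1 and 15 for Klf1.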
